A study of Mus musculus with 6 samples.

Results

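The genes described here are the platelet-derived growth factor (PDGF) receptors and ligands and a set of surface and channel genes that mark pericytes, the mural cells of small blood vessels. The 10 genes were Pdgfra, Pdgfrb, Pdgfa, Pdgfb, Pdgfc, Cspg4, Mcam, Rgs5, Anpep and Kcnj8, chosen by name. Every probe set that the array annotation gave to exactly 1 gene, that gene being 1 of the 10, was taken. This gave 20 probe sets, 19 on the MOE430A array and 1 on the MOE430B array, out of 35067 probe sets naming 1 gene and 18194 such genes in all. Each of the 10 genes had at least 1 probe set.

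The cells were 10T1/2, an established line of mouse embryonic fibroblasts, grown in DMEM with 10% fetal bovine serum and taken at 80% confluency. The labels name no treatment and no second condition, so the series is 1 group of 3 samples, numbered 1, 4 and 5, each hybridised to both array designs. Nothing in them ties the samples to separate cultures, and their spread may be technical. With 1 group there is no comparison between conditions and no test was made. The values are MAS5 signals, a linear measure of probe set brightness scaled separately on each array, so signals of the designs, and of different probe sets, are not set against each other as abundance.

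A probe set was called detected when it lay above a background limit on all 3 arrays of its design. The limit was the 95th percentile of the signals of genes restricted to distant tissues such as retina, liver and pancreas. On MOE430A it was 990, 945 and 783 in samples 1, 4 and 5, from 96 probe sets. On MOE430B it was 3604, 2697 and 2105 and rested on 10 probe sets only. The ratio of 3' to 5' signal of Gapdh, a measure of RNA integrity and labelling, was 23.4, 14.0 and 11.5 on MOE430B, and that of Actb was 17.5, 9.57 and 8.68 on MOE430A. Sample 1 was highest and sample 5 lowest in both. The Actb ratio on MOE430B was also highest in sample 1, but lowest in sample 4, at 20.2, 8.23 and 10.8. That 8.23 was the lowest ratio of either gene on any array, so the 3' signal was several-fold the 5' signal on every array. Whether this 3' bias affected calls of not detected, or differences between probe sets of the same gene, was not tested. Per the run settings, the MOE430A array of sample 5 was washed on fluidics station 2 and the other 5 arrays on station 1. Of 20 markers of fibroblasts, 15 were detected, among them the collagen genes Col1a1, Col1a2, Col3a1 and Col5a1, while Lum, Fbln1 and Thy1 were not. Over all genes 31.8% were detected.

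PDGFs are secreted dimers that act through a pair of receptor tyrosine kinases. The A and C chains act mainly through the alpha receptor and the B chain through both. In mesenchyme the alpha receptor marks fibroblast progenitors. In vessels, the B chain released by endothelial cells recruits pericytes and smooth muscle cells that carry the beta receptor, and 10T1/2 cells have long been used as a stand-in for such mural precursors in co-culture with endothelium.

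The promoters of a receptor, a ligand and a pericyte proteoglycan gene are shown because these genes were detected and because each had another order of samples, with sample 5 highest for the ligand and lowest for the proteoglycan. The sequences are RefSeq windows of assembly GRCm38.p6, from 250 bases before to 50 bases after an annotated transcript start, with bases counted from 1 at the 5' end. The windows are chr5:75152001-75152300 (+ strand) for Pdgfra, chr3:81036166-81036465 (+ strand) for Pdgfc and chr9:56864854-56865153 (+ strand) for Cspg4. Capitals mark matches on either strand to the GC box GGGCGG, the TEAD core GGAATG, the TATA box TATAAA or the CCAAT box CCAAT.
Pdgfra: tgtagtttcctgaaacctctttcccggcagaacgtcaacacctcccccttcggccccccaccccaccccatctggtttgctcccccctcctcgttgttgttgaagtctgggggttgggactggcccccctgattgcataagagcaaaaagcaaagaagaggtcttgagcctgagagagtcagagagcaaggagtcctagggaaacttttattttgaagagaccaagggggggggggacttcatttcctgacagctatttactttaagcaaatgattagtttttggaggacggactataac
Pdgfc: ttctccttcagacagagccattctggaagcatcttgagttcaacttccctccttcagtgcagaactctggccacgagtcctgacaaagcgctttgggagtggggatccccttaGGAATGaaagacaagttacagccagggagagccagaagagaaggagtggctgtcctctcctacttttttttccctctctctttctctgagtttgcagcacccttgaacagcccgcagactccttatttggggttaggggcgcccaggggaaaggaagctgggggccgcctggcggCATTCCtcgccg
Cspg4: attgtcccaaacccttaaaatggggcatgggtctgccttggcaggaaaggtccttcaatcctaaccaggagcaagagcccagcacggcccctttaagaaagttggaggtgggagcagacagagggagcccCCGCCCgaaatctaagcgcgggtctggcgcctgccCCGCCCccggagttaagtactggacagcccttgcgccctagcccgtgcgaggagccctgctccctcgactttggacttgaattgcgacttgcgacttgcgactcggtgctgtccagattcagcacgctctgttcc

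The Cspg4 window held 2 GC boxes, at bases 131 and 166, and no match to the other motifs. The Pdgfc window held 2 TEAD cores, at bases 114 and 289, and no GC box. The Pdgfra window held none of the 4 motifs. Of 32851 promoter windows of the same length, 35.7% held GGGCGG, 14.7% GGAATG, 13.6% TATAAA and 37.4% CCAAT. CpG dinucleotides numbered 5 in the Pdgfra window, 8 in that of Pdgfc and 17 in that of Cspg4, against a median of 7 over all windows. Windows were matched for 8 of the 10 genes, all but Pdgfb and Pdgfrb. The windows of Anpep and Mcam, which were not detected, held 28 and 29 CpGs and 4 and 5 GC boxes. Those of Kcnj8 and Rgs5, also not detected, held 9 and 6 CpGs and no GC box. The 2 windows of Pdgfa, which was detected, held 24 and 37 CpGs and 1 and 2 GC boxes. A match describes letters and was not tested as a site.

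Both PDGF receptors, the A and C ligand chains and the NG2 proteoglycan gene Cspg4 were detected, while Pdgfb and 4 pericyte markers were not. In all, 5 of the 10 genes were detected, where 31.8% of all genes were. By probe set, 6 of 19 were detected on MOE430A, where 29.1% of probe sets naming 1 gene were, and 1 of 1 on MOE430B, where 12.7% were. The probe set share on MOE430A is thus near that of the whole array. With the limit at the 99th percentile, 3 of the 10 genes were detected, Pdgfra, Pdgfrb and Pdgfc, and the calls for Pdgfa and Cspg4 were lost. Over all genes, detection was more frequent with more probe sets, at 18.5% of genes with 1, 36.4% with 2, 49.6% with 3 and 61.1% with 4 or more. Here none of the 3 genes with a single probe set (Mcam, Anpep and Kcnj8) was detected, and 4 of the 5 with 2 probe sets were, all but Pdgfb. Pdgfra, with 3, was detected and Rgs5, with 4, was not. By mean log2 signal among probe sets of its design, the brightest detected one was that of Pdgfra on MOE430A, at the 94.1st percentile, and the dimmest that of Cspg4, at the 72.1st.

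**Figure D1:**
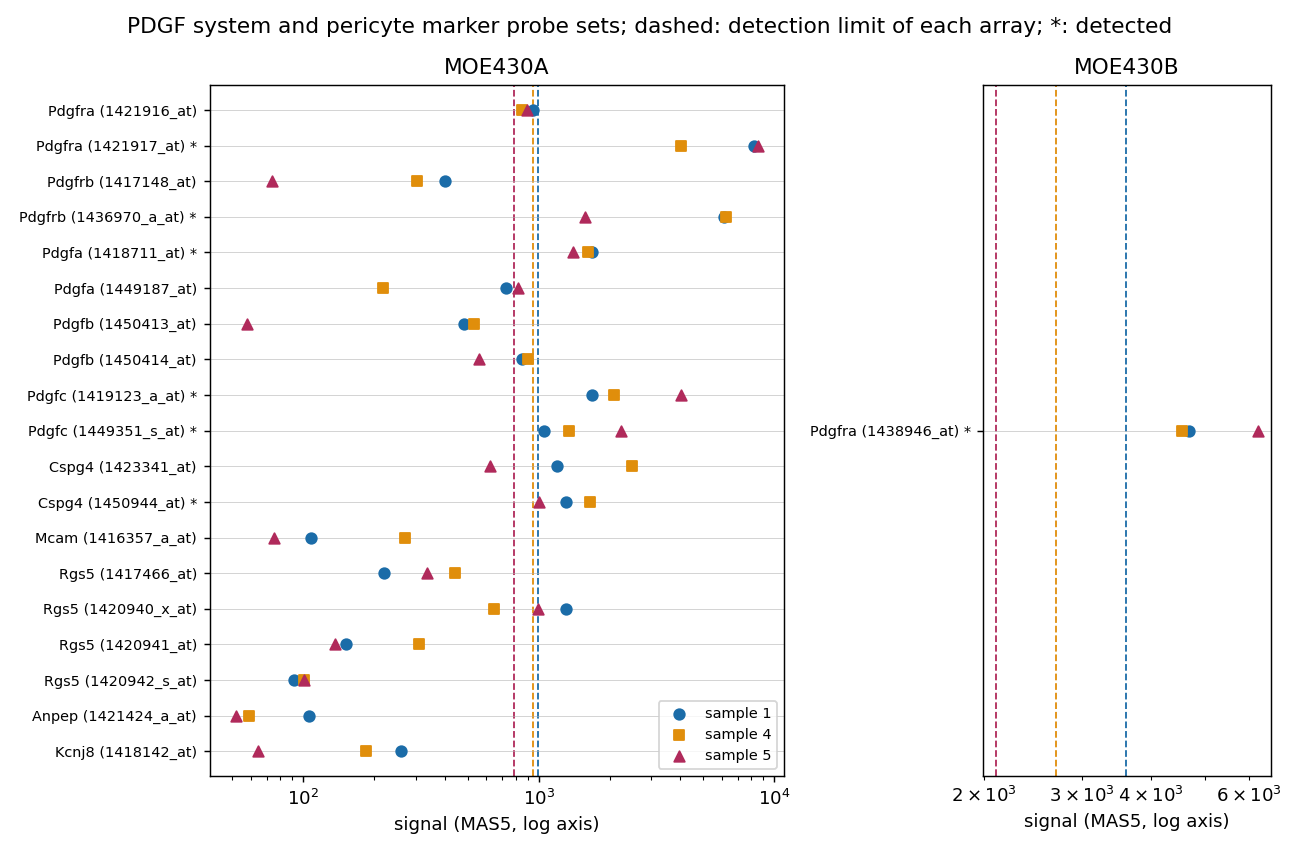
Signal (MAS5 units, log axis) of each PDGF system and pericyte marker probe set in samples 1, 4 and 5, with MOE430A on the left and MOE430B on the right. Dashed lines mark the detection limit of each array, 990, 945 and 783 on MOE430A and 3604, 2697 and 2105 on MOE430B, and asterisks mark the 7 probe sets above it in all 3 samples.

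Pdgfra, the alpha receptor gene, had 3 probe sets and was the only gene of the set measured on both designs. Probe set 1421917_at on MOE430A read 8198, 4006 and 8560 in samples 1, 4 and 5 (mean 6921 ± 2531, SD, n = 3). It lay 8.28, 4.24 and 10.9 times above the limit, and sample 4 stood below the other two. Probe set 1438946_at on MOE430B read 4679, 4549 and 6229 (5153 ± 935, n = 3), which is 1.30, 1.69 and 2.96 times its limit. Here samples 1 and 4 were close together and sample 5 was highest, within a 1.37-fold range, where 22.6% of detected MOE430B probe sets spanned at least 2-fold. The third, 1421916_at, read 949, 850 and 891 and passed the limit only in sample 5, so it was not detected although its signals lay near the limit in every sample.

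The dip of Pdgfra in sample 4 was therefore seen on 1 design and much smaller on the other. On MOE430A sample 4 deviated from the mean of the other samples by -1.06 on the log2 scale, which is 2.09-fold lower, and 1.85% of detected probe sets on that design were at least 2-fold lower in sample 4. On MOE430B the deviation was -0.25. The 2 deviations differ by 0.82. Over the 290 genes detected by different probe sets on both designs, the median absolute difference in sample 4 was 0.37, and 11% of genes differed by more than Pdgfra. In sample 5 the Pdgfra deviations were 0.58 on MOE430A and 0.43 on MOE430B, both upward. In sample 1 they were 0.49 and -0.19, with opposite signs.

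Pdgfrb, the beta receptor gene and the classical receptor of pericytes, was 3.91-fold lower in sample 5 than in the others. Probe set 1436970_a_at read 6100, 6217 and 1575 in samples 1, 4 and 5 (4631 ± 2647, SD, n = 3). Samples 1 and 4 were nearly equal, differing by 0.03 on the log2 scale, and sample 5 stood apart, yet at 2.01 times its limit it was still detected. The deviation of -1.97 (log2) was the farthest of any detected probe set in the set, and 6.41% of all detected MOE430A probe sets were at least 2-fold lower in sample 5. Only 1.08% of them had a lower deviation there. The deviation of sample 4, 1.00, is set by the low sample 5 among the others and came to 0.03 without it. The share of detected probe sets at least 2-fold higher in sample 4 was 2.09%. The other probe set, 1417148_at, read 400, 304 and 73.4 and lay below the limit throughout, with sample 5 again lowest. That probe set gives no level, and the call for Pdgfrb rests on 1 of 2 probe sets.

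Among the detected ligand probe sets, that of Pdgfa was the steadiest and those of Pdgfc were highest in sample 5. Pdgfa, the A chain, read 1682, 1625 and 1400 with probe set 1418711_at (1569 ± 149, SD, n = 3), 1.70, 1.72 and 1.79 times the limit. The samples lay within 1.20-fold of each other, with a coefficient of variation of 9.51%, where the median of all detected MOE430A probe sets was 23.6%. Its second probe set, 1449187_at, read 725, 219 and 815 and passed the limit in sample 5 only. It spanned 3.73-fold and had another order of samples, so the steadiness rests on 1 of 2 probe sets.

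Pdgfc, the C chain, is secreted in a latent form that proteases must cleave. Both of its probe sets were detected and gave the same order of samples. Probe set 1419123_a_at read 1679, 2085 and 4021 (2595 ± 1252, SD, n = 3) and 1449351_s_at read 1057, 1350 and 2233 (1547 ± 612, n = 3). Sample 5 was highest in both, by 2.15-fold and 1.87-fold over the mean of the other samples (1.10 and 0.90 on the log2 scale), and sample 1 lowest. Of all detected MOE430A probe sets, 6.48% were at least 2-fold higher in sample 5. The 2 probe sets share a target gene, and one whose name ends in _s_at can match several transcripts, so they are not independent measurements.

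Pdgfb, the B chain that vessel endothelium uses to attract pericytes, was below the limit on every array. Probe set 1450414_at read 848, 904 and 555, and 1450413_at read 480, 532 and 57.7. The first came to 0.96 of the limit in sample 4, so a low level cannot be told from background. Sample 5 was lowest with both, as it was for 40.1% of all MOE430A probe sets naming 1 gene.

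Of the pericyte markers outside the PDGF genes only Cspg4 was detected, near the limit and by 1 of its 2 probe sets. With the limit at the 99th percentile its call was lost. Cspg4 encodes NG2, a membrane proteoglycan of pericytes and of oligodendrocyte precursors that binds PDGF. Probe set 1450944_at read 1308, 1644 and 999 in samples 1, 4 and 5 (1317 ± 323, SD, n = 3), 1.32, 1.74 and 1.28 times the limit. Sample 4 was highest and sample 5 lowest, within a 1.65-fold range. Probe set 1423341_at read 1196, 2489 and 619, above the limit in samples 1 and 4 and below it in sample 5. The order of the samples was the same in both, and sample 5, the highest for Pdgfc, was the lowest here.

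Rgs5, a regulator of G protein signalling and a much used pericyte marker, was not detected by any of its 4 probe sets. The brightest, 1420940_x_at, read 1308, 644 and 998, above the limit in samples 1 and 5 and below it in sample 4, and its name ends in _x_at, so it can match other transcripts. The other probe sets read between 91.6 and 439 and stayed under the limit. Their sample orders differed, with sample 4 highest in 1417466_at and 1420941_at and lowest in 1420940_x_at. No common Rgs5 pattern can be read from them. Without sample 4, or with 2 of 3 arrays enough, Rgs5 was called detected through 1420940_x_at.

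Mcam, Anpep and Kcnj8 were far below the limit. Mcam encodes the adhesion molecule CD146 and read 108, 271 and 75.2 in samples 1, 4 and 5, at most 0.29 of the limit. Anpep, aminopeptidase N or CD13, read 106, 59.1 and 51.7, at most 0.11 of it. Kcnj8, the pore subunit of a potassium channel of mural cells, read 261, 185 and 64.4, at most 0.26 of it. Each had 1 probe set, so an insensitive probe set and a silent gene cannot be told apart. In such bulk samples, fewer cells of a type and less RNA per cell cannot be told apart either.

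**Figure D2:**
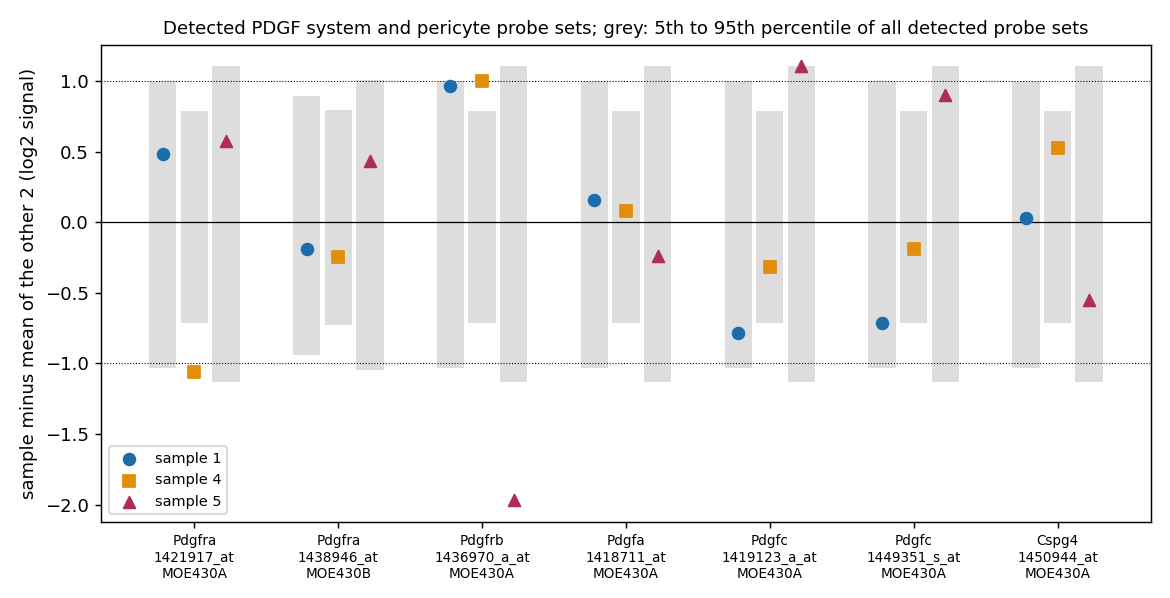
Deviation of each sample from the mean of the other 2 (log2 signal) for the 7 detected probe sets, with grey bars from the 5th to the 95th percentile of all detected probe sets of the same design and sample. Sample 5 of Pdgfrb at -1.97 and sample 4 of Pdgfra (1421917_at) at -1.06 lie below their bars. Sample 4 of Pdgfrb at 1.00 lies above its bar, but without sample 5 it stands at 0.03.

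Across the set, 4 of the 6 detected MOE430A probe sets, belonging to Pdgfra, Pdgfrb and Pdgfc, spanned at least 2-fold over the 3 samples, where 25.3% of all detected probe sets did. Which sample was extreme differed by gene. For Pdgfra it was sample 4, low, and for Pdgfrb sample 5, low. For Pdgfc it was sample 5, high. In sample 1 none was 2-fold from the others, where 5.05% of all detected probe sets were higher and 5.51% lower. The coefficient of variation had a median of 38.1% over the 6 probe sets, against 23.6% over all detected ones. Without sample 5 the count was 1 of 6, the Pdgfra probe set, where 7.59% of all detected probe sets spanned 2-fold between the other samples. Without sample 1 it was 2 of 6, those of Pdgfra and Pdgfrb, against 12.2%, and without sample 4 it was 3 of 6, against 18.7%. The alpha and beta receptors thus did not vary together, with Pdgfra at 8560 and Pdgfrb at 1575 in sample 5, the highest of the 3 samples for Pdgfra and the lowest for Pdgfrb.

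The genes closest in pattern were found by the distance between log2 signals, centred on each probe set's mean, over the 3 samples on MOE430A. For Pdgfrb they were the calcium-binding protein gene S100a4 (distance 0.05), the calponin gene Cnn2 (0.09) and Copz2 (0.09). S100a4, which is also on the fibroblast marker list, read 56267, 59681 and 15289 in samples 1, 4 and 5. Within a distance of 0.25 lay 22 of 5939 probe sets (0.37%). For Pdgfra, Prdx4 (0.04), Lats2 (0.05) and Atp6v1g1 (0.06) were closest, and 44 of 5939 probe sets (0.741%) lay within 0.25. For Pdgfc, Kpnb1 (0.02), Hnrnpdl (0.02) and Nars (0.03) were closest, and 150 of 5938 (2.53%) lay within it. With 3 samples many genes share a pattern, and the nearest ones are given as a description.

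The other ligands and receptors of the wider PDGF and VEGF family had 3 of 11 genes detected, where 31.8% of all genes were. These were the co-receptor genes Nrp1 (4288, 3664 and 2135 in samples 1, 4 and 5) and Lrp1, an endocytic receptor that associates with the beta receptor (4420, 4265 and 2854), and Vegfd (3794, 3031 and 1296). All 3 were lowest in sample 5, as were 40.1% of all MOE430A probe sets naming 1 gene. Without sample 5 the count was 5 of 11, with Pdgfrl and Kdr added, and without sample 4 it was 5 with Vegfa and Vegfb added. Over all genes the share was then 33.6% and 33.5%. Pdgfd, the ligand gene that acts through the beta receptor, was not detected by any of its 3 probe sets and read 1188, 1594 and 1355 on MOE430B. Pdgfrl, a gene named for its likeness to PDGF receptors, read 10436, 5620 and 1421 on MOE430B, above the limit in samples 1 and 4 and below it in sample 5. Flt1 was not detected.

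Proteases that activate PDGF chains had 2 of 7 genes detected, where 31.8% of all genes were. Furin, a proprotein convertase able to process the A and B chains, read 3457, 1542 and 1423 in samples 1, 4 and 5, and sample 1 was 2.33-fold above the mean of the others. Pcsk7 read 1768, 1562 and 1377. Plat, the tissue plasminogen activator that cleaves PDGF-C, read 2480, 1770 and 562, above the limit in samples 1 and 4 only. Plat was thus lowest in sample 5, where Pdgfc was highest. Of all MOE430A probe sets naming 1 gene, 40.1% were lowest there. Pcsk5 and Pcsk6 were not detected, and without sample 5 Plat brought the count to 3 of 7, set beside 33.6% of all genes.

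Most measured components of signalling below the receptors were detected by at least 1 probe set. Of 31 measured genes, 24 were detected (77.4%), and of 16 genes that limit receptor activity 11 were (68.8%). Over all genes the share was 31.8%, and it rose from 18.5% of genes with 1 probe set to 61.1% with 4 or more. The lists were not matched for this number. Of the 71 MOE430A probe sets of the signalling list, 35 were above the limit on no array, and of the 39 that limit receptor activity 18 were. The adaptor gene Grb2 read 1148, 1892 and 1269 in samples 1, 4 and 5, Shc1 read 3413, 3380 and 2120, and the phosphatase gene Ptpn11, which binds both receptors, 12936, 10574 and 9748. The kinase subunit gene Pik3r1 and the exchange factor gene Sos1 were detected on MOE430B, by 1 of 4 and 1 of 5 probe sets. The docking protein gene Gab1 read 3273, 1950 and 1080 and was 2.34-fold lower in sample 5 than in the others. The signalling list as a whole had a median deviation in sample 5 of -0.16 (log2) over 19 genes, and 3 of these were at least 2-fold lower there and 1 higher. All detected MOE430A probe sets had a median of -0.06, and 6.41% of them were at least 2-fold lower in sample 5 and 6.48% higher. Sos2, Pik3ca and Yes1 were not detected.

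**Figure D3:**
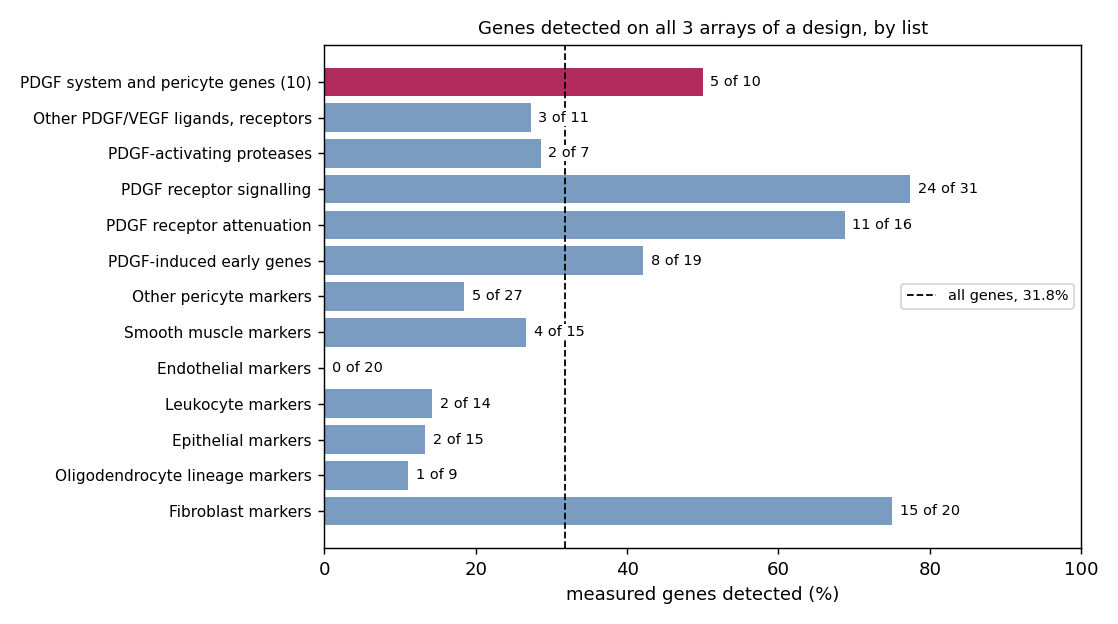
Share of measured genes detected (%), for the 10 PDGF system and pericyte genes, the related gene lists and the markers of other cell types, with the count beside each bar and a dashed line at 31.8% for all genes. PDGF receptor signalling (24 of 31), fibroblast markers (15 of 20) and receptor attenuation (11 of 16) have the longest bars, and endothelial markers have 0 of 20.

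Of 19 genes known to be induced early by PDGF in fibroblasts, 8 were detected (42.1%), set beside 31.8% of all genes. Over the 7 of these on MOE430A the median deviation in sample 5 was 1.01 (log2). At least 2-fold higher there were 4 of the 7, set beside 6.48% of all detected MOE430A probe sets. Ier3 read 3951, 4818 and 24201 in samples 1, 4 and 5, and Ier2 read 1533, 1583 and 3128. Jun, which encodes an AP-1 subunit, read 8363, 4791 and 10435. The other two of the 7 were lower in sample 5, Egr1 at 5431, 4224 and 4090 and Srf at 2934, 1931 and 1617. The chemokine gene Ccl2 was not detected by the rule, because it read 367 and 267 in samples 1 and 4, but it read 14237 in sample 5. Ccl7 read 624, 372 and 1764. Cxcl1 on MOE430B and Myc were likewise highest in sample 5, whereas Egr2 and Junb, which were not detected, had their lowest readings there. The culture serum itself contains PDGF, and which stimulus these genes followed was not tested.

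Of 27 other markers of pericytes, 5 were detected (18.5%), set beside 31.8% of all genes. Without sample 5 the count was 9 of 27 (33.3%), set beside 33.6% of all genes, since Cd248, Aspn, Foxc1 and Ifitm1 passed the limit in samples 1 and 4 only. Cd248, the endosialin gene, read 7724, 4207 and 55.6 in samples 1, 4 and 5, and Aspn read 4759, 5035 and 398. Those detected in all 3 samples were Notch3, Cox4i2, Adamts1, Lhfp and Vim, of which Vim is expressed throughout mesenchyme. Notch3, a receptor of mural cells, read 2271, 1244 and 1100 in samples 1, 4 and 5. Cox4i2 read 1009, 1013 and 1008, where the limits were 990, 945 and 783, so it was closest to the limit in sample 1. Adamts1, a secreted protease gene, read 41635, 13960 and 4960. Abcc9, the partner subunit of the Kcnj8 channel, was not detected, and neither was Des or Vtn. Desmin is a marker of mural cells and muscle, and vitronectin one of brain pericytes.

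Smooth muscle markers had 4 of 15 genes detected (26.7%), where 31.8% of all genes were. All 4 were lower in sample 5, with a median deviation of -1.22 (log2). Acta2, the actin of contractile mural cells and myofibroblasts, was 16.3-fold lower in sample 5 than in the others, and was detected by 1 of its 3 probe sets. Tpm1 read 15586, 7988 and 3797 in samples 1, 4 and 5. Cald1 read 18920, 24975 and 11787, and Tpm2 21026, 21430 and 11677. Tagln, Cnn1 and Myh11 were not detected. Without sample 5 the count was 6 of 15, set beside 33.6% of all genes. Over 13 detected fibroblast markers on MOE430A the median deviation in sample 5 was -1.73, with 12 lower there and 9 at least 2-fold lower. Of all detected MOE430A probe sets, 6.41% were at least 2-fold lower there. Col5a1 read 15250, 17082 and 3800, and Fbln2 3305, 6532 and 2747. Dcn, the decorin gene, had another order, at 7178, 1327 and 2978, and was lowest in sample 4. Summed over the lists, MOE430A signals were 556847, 480890 and 163160 for fibroblast markers and 158178, 163408 and 47359 for smooth muscle markers. On MOE430B, which has no Pdgfrb probe set, the fibroblast markers Prrx1 and Ddr2 were also lower in sample 5 (-1.49 and -0.46, log2). There 5.45% of all detected probe sets were at least 2-fold lower in sample 5. The low Pdgfrb signal of sample 5 thus came together with low signals of matrix and contractile genes on MOE430A. That array of sample 5 was washed on the other station and had the lowest 3' to 5' ratios of its design. The part of each in the result was not tested.

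**Figure D4:**
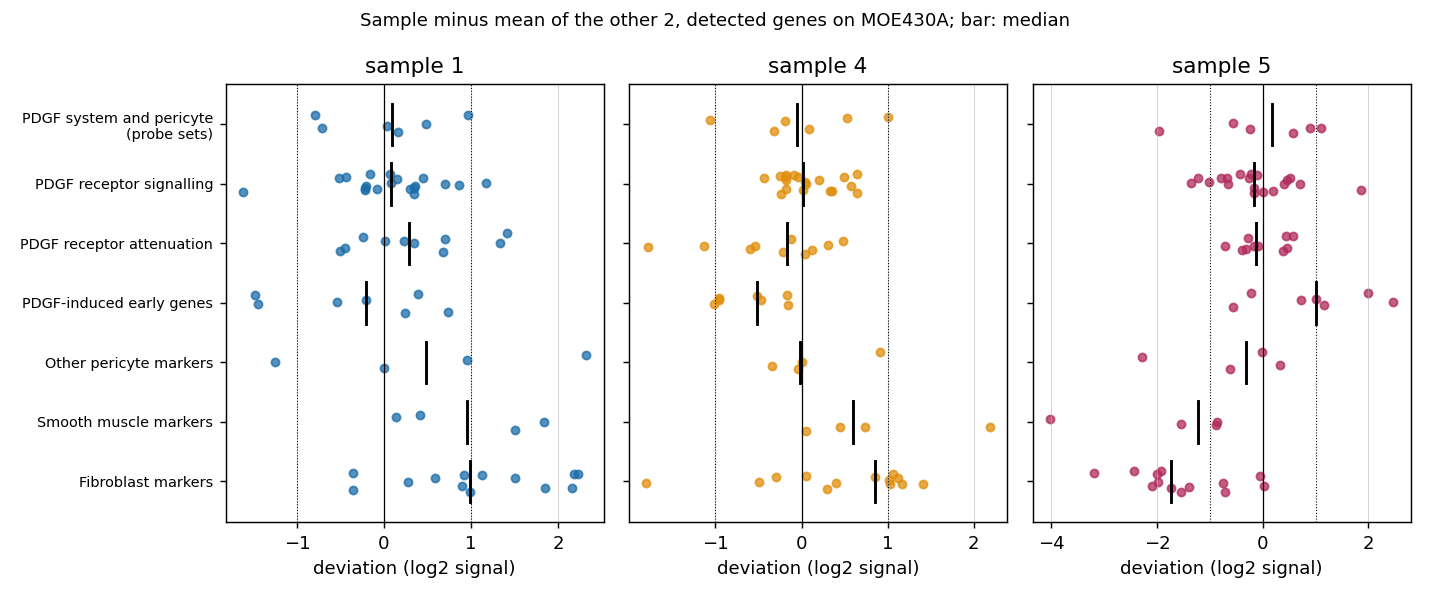
Deviation of samples 1, 4 and 5 from the mean of the other 2 (log2 signal) for detected probe sets of the PDGF system and pericyte genes and for detected genes of related lists on MOE430A, 1 panel per sample, with a bar at each median. In sample 5 the fibroblast median stands at -1.73, the smooth muscle median at -1.22 and that of PDGF-induced early genes at 1.01.

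Few markers of other cell types were detected, though 2 of them were well above the limit. Over all genes the share detected was 31.8%. Endothelial cells, a source of the B chain, had 0 of 20 markers detected, and Pecam1 read 228, 329 and 126 in samples 1, 4 and 5. Cdh5 was not detected, nor was Kdr, which read 1491, 1108 and 687 and passed the limit in samples 1 and 4. The summed signal of endothelial markers on MOE430A was 13614, 12441 and 8705, and 25 of 28 probe sets were above the limit on no array. No probe set of either design has a signal of 0 or less, so a signal above 0 says nothing about whether these markers were expressed. Of the oligodendrocyte lineage, whose precursors carry Pdgfra and Cspg4, 1 of 9 markers was detected, Sox10, at 1370, 1517 and 1186. Olig1 and Olig2, which define that lineage, read at most 292 and 23.7, and Mbp was not detected. Leukocyte markers had 2 of 14 detected, Csf1r at 1191, 1222 and 1165 and Cd14 at 2151, 2576 and 4147, while Ptprc, Cd68 and Itgam were not. Epithelial markers had 2 of 15 detected, Epcam and Elf3, while Cdh1, Krt8 and Krt18 were not. Epcam was detected by 1 of its 2 probe sets, on MOE430B, at 31382, 139544 and 29693, far above the limits of that design and highest in sample 4. Its name ends in _x_at, so it can match other transcripts. The MOE430A sums leave that probe set out. They ran between 10582 and 12212 for leukocyte markers, 5375 and 7082 for epithelial and 4834 and 8570 for oligodendrocyte markers.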

How the data were processed

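RNA of 3 samples of 1 cell line was hybridised to MOE430A and MOE430B arrays. Per the submitters' processing notes MAS5 was used, and the values the authors deposited are its linear signal intensity for each probe set on each array. No source used here gives its version or settings. The trimmed mean was 1500 on every array. The designs were kept apart. The annotation gave 1 gene to 20393 of 22690 probe sets on MOE430A (691 several, 1606 none) and to 14674 of 22575 on MOE430B (245 several, 7656 none), with symbols updated through RefSeq. The members and lists were chosen with earlier results of these data known.

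The limit on each array was the 95th percentile of a list of 79 tissue-restricted genes, 72 of them measured. The list planned as main was not used here, and the planned second list took its place. Of its genes, Cd8a, Pomc and Sftpb were themselves detected. A gene was detected when any of its probe sets was, and its brightest detected probe set by mean log2 (failing one, its brightest) stands for it. Signals were set to at least 1 before log2. Calculations used Python 3.11.15 and pandas 2.3.3 and were tested on simulated data. Of each list, the first 6 detected genes and the first 3 not detected are named, and others were chosen after their values were seen. Samples are replicates of 1 group, so no test was made, and the 3 arrays of a design limit the precision. Alternatives covered the limit, the arrays required, the probe sets used, the pseudocount, quantile normalisation and leaving out samples. All per-sample columns were used. Run settings served to check samples and stations.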

Additional observations from a re-analysis of the deposited data

How the results depend on the processing

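With the limit at the 99th percentile, 3 genes (Pdgfra, Pdgfrb and Pdgfc) and 3 MOE430A probe sets were detected, and Pdgfa and Cspg4 were not. When a majority of a gene's probe sets had to be detected, 2 genes were, Pdgfra and Pdgfc. With 1 of 3 arrays enough, 10 MOE430A probe sets were detected, and Rgs5 was added, as it was with 2 of 3 arrays or without sample 4. The other alternatives, the 90th percentile, a limit from olfactory and vomeronasal receptor genes chosen after seeing the data, and no _s_at or _x_at probe sets, left the same 5 genes detected. Leaving out a sample gave 5 to 6 genes, 6 to 7 MOE430A probe sets and 1 MOE430B probe set. The count of MOE430A probe sets spanning at least 2-fold was 13 of 19 with no filter and 1 to 3 with a sample left out. Leaving out a sample (chosen after seeing the data) gave 5 to 9 detected genes of 27 pericyte markers, 3 to 5 of 11 ligands and receptors, 2 to 3 of 7 proteases, 4 to 6 of 15 smooth muscle markers, 0 to 1 of 20 endothelial markers (Mmrn2 without sample 1, Kdr without sample 5) and 1 to 2 of 9 oligodendrocyte markers. The other lists stayed within 1 gene. Over all genes, 37.6% were detected without sample 1, 33.5% without sample 4 and 33.6% without sample 5, against 31.8% with all 3. The span count stayed between 4 and 5 with pseudocounts of 16 or 64, quantile normalisation, the 90th percentile limit and the filter on mean signal. With 3 samples kept, the Pdgfrb deviation in sample 5 was at its smallest -1.92, and that of Pdgfc (1419123_a_at) ran between 1.07 and 1.10. That of Pdgfrb in sample 4 was just under 2-fold with either pseudocount, at 0.998 and 0.982. No paired analysis was possible because the shared sample numbers link 2 array designs of the same RNA, not 2 groups, and no result came from a test. The MOE430B limit rests on 10 probe sets, and signals near it give no firm call.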

Other observations

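Of the genes that limit PDGF receptor signalling, 2 of 10 on MOE430A were at least 2-fold lower in sample 4, where 1.85% of all detected probe sets were. The phosphatase gene Ptpn2 read 6315, 1495 and 4200 in samples 1, 4 and 5, and 2 of its 4 probe sets were detected. Socs3, an inhibitor of cytokine receptor signalling, read 10368, 3195 and 4746, from 1 of 3 probe sets. Both were highest in sample 1, by at least 2-fold over the others (1.33 and 1.41, log2), where 5.05% of all detected probe sets were. Both were lowest in sample 4, the sample in which the MOE430A probe set of Pdgfra was lowest. On MOE430B the Pdgfra deviation in sample 4 was only -0.25. The relation of the 2 genes to Pdgfra was not tested. Ptpn1, which also acts on PDGF receptors, read 4147, 2331 and 2778, in the same order. Over the 10 genes the median log2 deviation of sample 4 was -0.17, with 6 lower. Among those higher in sample 4 were Grb10 (0.48), Hgs (0.31), Acp1 (0.12) and Spry1 (0.04). Ptpn12 read 3522, 4087 and 5620. The ubiquitin ligase gene Cblb read 5729, 4451 and 5663 on MOE430B, and Cbl, Ptprj and Slc9a3r1 were not detected.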
